A study of Haemaphysalis flava with 2 samples.

Results

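Madanins and chimadanin are small thrombin inhibitors first described from the salivary glands of the tick Haemaphysalis longicornis. Contigs that resemble them were followed in salivary glands of the related hard tick Haemaphysalis flava. The contigs were chosen by name: every assembled contig whose best-matching UniProt protein is described as madanin or chimadanin was kept. The name search found 4 of 54357 contigs. The contigs contig_213, contig_40363 and contig_23019 are described as chimadanin (gene HLSG-g21 of H. longicornis), and contig_48 is described as madanin-like (gene HLSG-g28b).

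Polyadenylated RNA of salivary glands was sequenced from engorged (fully fed) ticks and from semi-engorged (partly fed) ticks. The labels give no strain, sex, host or age. The series text speaks of 100 glands from 50 engorged and 50 semi-engorged ticks. Each stage has 1 library, which was treated as a pool. Every value below therefore describes these libraries, and no difference has a replicate check. The engorged library holds 57892372 reads on contigs, and the semi-engorged one 54039984.

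Thrombin is the protease that turns fibrinogen into fibrin and activates platelets, and a tick that feeds for days has to keep it in check at the bite. Madanins and chimadanin of H. longicornis lack the cysteine bridges of most secreted inhibitors, and thrombin itself can cleave madanins as it is inhibited by them. Other tick saliva proteins act on the same cascade, among them Kunitz-domain inhibitors, serpins, and apyrases that remove the platelet agonist ADP. Whether the H. flava contigs encode working inhibitors was not tested, since a description is only the name of the best match.

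In both libraries, the family was abundant, but a different contig led it in each. The engorged library was led by the chimadanin contig contig_213, with 62.4% of the family's reads (Wilson 95% interval 62.1% to 62.6%), and the semi-engorged library by the madanin-like contig contig_48, with 64.8% (64.4% to 65.2%). The chimadanin contig contig_40363 stood at nearly the same level in both libraries. Among contigs with the same chimadanin name, the engorged to semi-engorged ratio thus ran from 0.989 to 127.

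Levels are given as CPM (reads scaled to a library of 1000000 reads), and between contigs as the deposited RPKM, which also divides by contig length. Ratios are engorged over semi-engorged CPM with exact Clopper-Pearson 95% intervals from the split of a contig's reads, and all intervals cover counting error only. The call was a difference of at least 1 in log2(CPM + 1) between the libraries, made for the 47965 contigs with at least 20 reads over both. All 4 contigs passed this filter. Of all tested contigs, 13.0% were called on the engorged side and 15.5% on the semi-engorged side. The order of these shares rests on the scaling: the calls numbered 6257 and 7421, but 8719 and 7823 with totals that leave out the 50 most abundant contigs, and 4982 and 8541 with the median log2 ratio set to 0. Among the 29191 contigs with at least 100 reads over both libraries these shares were 20.7% and 22.4%. Of the 4 madanin and chimadanin contigs, 1 was called on the engorged side, 1 on the semi-engorged side and 2 on neither. With 4 contigs, these counts cannot be set apart from the shares over all contigs.

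The chimadanin contig contig_213, 719 bases long, had 62711 engorged and 460 semi-engorged reads. It stood at 1083 CPM (exact Poisson 95% interval 1075 to 1092) against 8.51 CPM (7.75 to 9.33), abundant in the engorged library and scarce in the semi-engorged one. The ratio was 127 (116 to 140). The log2 fold, which is taken on CPM + 1 and so is somewhat smaller, was 6.83. Of the other tested contigs, 77 (0.161%) had as large or larger a log2 fold in the engorged direction. Per length, contig_213 ranked 66th of all contigs in the engorged library, at 1507 RPKM, and 7811th in the semi-engorged library, at 11.8 RPKM.

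The chimadanin contig contig_40363, 408 bases long, had 19989 engorged and 18866 semi-engorged reads. Its levels of 345 CPM (341 to 350) and 349 CPM (344 to 354) had overlapping counting intervals. The ratio was 0.989 (0.969 to 1.01). Per length it ranked 130th in the engorged library, at 846 RPKM, and 188th in the semi-engorged library, at 856 RPKM. It was therefore among the abundant contigs of both libraries. The sign of its log2 fold of -0.016 turned with the scaling, to 0.21 when the 50 most abundant contigs of each library were left out of the totals and -0.25 when the median log2 ratio of well-covered contigs was set to 0, so no direction is given for it.

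The chimadanin contig contig_23019, 380 bases long, was scarce, with 510 engorged and 390 semi-engorged reads. It stood at 8.81 CPM (8.06 to 9.61) against 7.22 CPM (6.52 to 7.97), a ratio of 1.22 (1.07 to 1.40). This is well inside the 2-fold limit, and the log2 fold of 0.26 ran from 0.048 to 0.47 over the alternative settings. Per length, contig_40363 was 36.5-fold (engorged) and 45.1-fold (semi-engorged) higher than contig_23019. In the semi-engorged library contig_213 and contig_23019 were close, at 11.8 and 19.0 RPKM.

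The madanin-like contig contig_48, 585 bases long, had 17368 engorged and 36347 semi-engorged reads. It stood at 300.0 CPM (296 to 305) against 673 CPM (666 to 680), higher in the semi-engorged library. The semi-engorged level was 2.24-fold higher (2.20 to 2.28), and the log2 fold was -1.16. Of the other tested contigs, 6329 (13.2%) had as large or larger a log2 fold in the semi-engorged direction. The median over the 552 tested contigs with salivary gland names was -1.01. With totals that leave out the 50 most abundant contigs the log2 fold was -0.94, short of the 2-fold limit, so the call rests on the scaling while the direction held under every scaling tried. Per length contig_48 ranked 224th in the engorged library, at 513 RPKM, and 119th in the semi-engorged library, at 1150 RPKM.

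**Figure D1:**
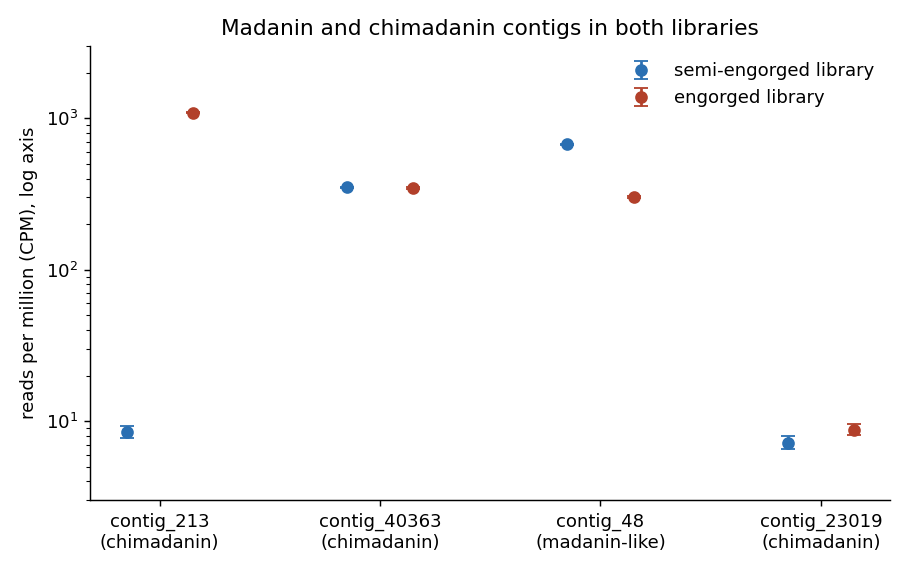
Level of each contig in CPM (log axis) in the semi-engorged and the engorged library, with exact Poisson 95% intervals that cover counting error only. The chimadanin contig contig_213 goes from 8.51 to 1083 CPM, contig_48 is lower in the engorged library, and contig_40363 has nearly the same level in both.

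Setting contigs against each other within a library removes the library total from the comparison. Per length, contig_213 was 1.78-fold higher than contig_40363 in the engorged library and 72.3-fold lower in the semi-engorged library. The ratio of the engorged to semi-engorged ratios of these contigs was 129 (Wald 95% interval 117 to 141). Between contig_213 and contig_23019 it was 104 (88.8 to 122), so the contigs that share the chimadanin match differ strongly in how their reads divide between the libraries. Between contig_40363 and contig_23019 it was 0.810 (0.709 to 0.926), a far smaller gap. Against the madanin-like contig_48, the ratio of ratios was 285 (260 to 313) for contig_213 and 2.22 (2.16 to 2.28) for contig_40363. The order of levels per length was contig_213, contig_40363, contig_48 and contig_23019 in the engorged library, and contig_48, contig_40363, contig_23019 and contig_213 in the semi-engorged library. Each neighbouring pair in these orders was further apart than its counting error, and no replicate spread exists to judge them by.

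Whether the 3 chimadanin contigs are separate genes, alleles of ticks in the pool or pieces of a single transcript was not tested, as no contig sequence was used here. Reads of near-identical contigs can also be split by the counting method, so the values of single chimadanin contigs are uncertain in that respect. If each read was counted a single time and only within contigs that share a description, their sum does not depend on how reads were split. The sources used here do not say whether this was so. Summed, the chimadanin contigs had 83210 engorged and 19716 semi-engorged reads, a ratio of 3.94 (3.879 to 4.001). Without contig_213, the sum was 20499 against 19256 reads, with a ratio of 0.994 (0.974 to 1.01), so the difference of the chimadanin sum lay in this contig.

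Summed over all 4 contigs, the family held 100578 engorged reads, 0.174% of the library (Wilson 95% interval 0.173% to 0.175%), and 56063 semi-engorged reads, 0.104% (0.103% to 0.105%). This is a ratio of 1.67 (1.66 to 1.69), under the 2-fold limit. On the RPKM scale, which does not give long contigs more weight, the sums were 2889 and 2036, a ratio of 1.42. Without contig_213 the direction of the read sum turned, to 0.636 (0.627 to 0.644). The family's total thus differed less between the libraries than its make-up did. In the engorged library contig_213, contig_40363, contig_48 and contig_23019 took 62.4%, 19.9%, 17.3% and 0.507% of the family's reads. In the semi-engorged library the same contigs took 0.821%, 33.7%, 64.8% and 0.696%. In bulk RNA, fewer cells of a type and less RNA per cell cannot be told apart.

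**Figure D2:**
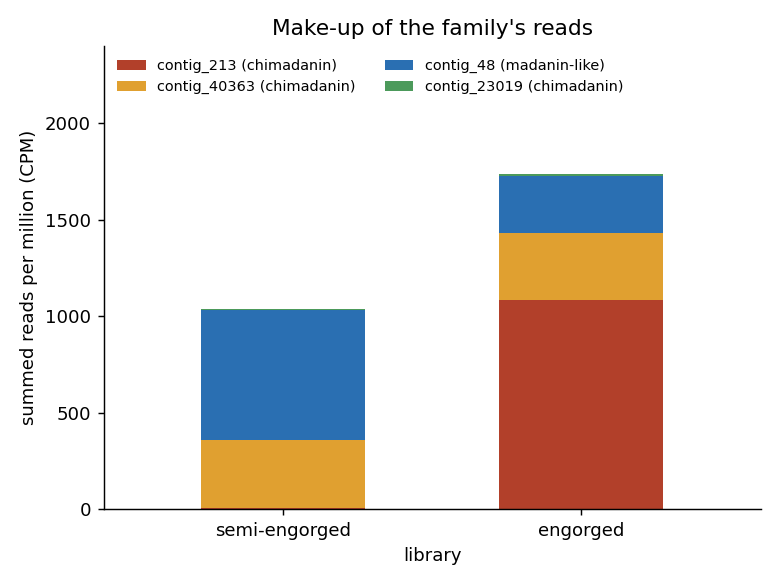
Summed CPM of the 4 contigs in each library, with each contig as a segment of the bar and 1 library per bar. The engorged bar reaches 1737 CPM and is led by contig_213, and the semi-engorged bar reaches 1037 CPM and is led by contig_48.

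**Figure D3:**
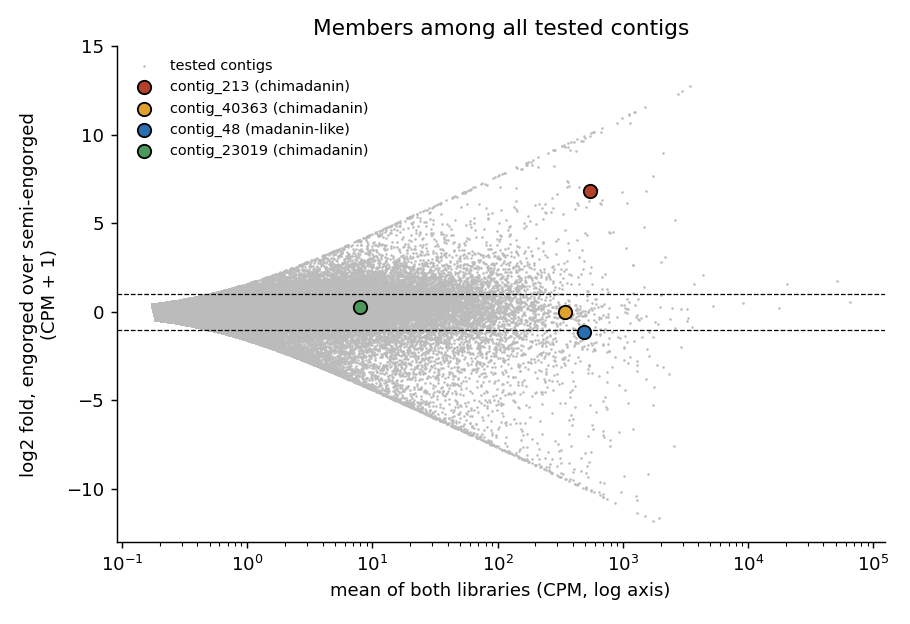
Log2 fold of engorged over semi-engorged CPM + 1 against the mean CPM of both libraries (log axis) for all 47965 tested contigs in grey and the 4 contigs in colour, with dashed lines at the 2-fold limit. The contig_213 point lies near 6.83 on the log2 axis, contig_48 just below the lower line and the other contigs between the lines.

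The contigs most like each member were sought among described contigs, leaving out uncharacterized, hypothetical and unknown proteins and bare secreted or salivary names, by Euclidean distance between log2(CPM + 1) values over the 2 libraries. The nearest to contig_213 was a salivary gland metalloprotease (contig_129), at a distance of 0.75 and with 47450 engorged against 740 semi-engorged reads. Next came a contig described as stathmin (contig_1441), a tubulin-binding protein, with 31798 against 457 reads, and a contig matching the spider toxin kappa-theraphotoxin-Hh1a (contig_1836), of the Kunitz fold, with 112399 against 905. No contig searched lay closer to contig_213 than 0.75, while the nearest contigs to the other members lay at 0.036 to 0.11. The nearest to contig_40363 were a 60S ribosomal protein L35-like contig (contig_194, distance 0.040), a rap1a small GTPase (contig_1974, 0.084) and GI12568, a fruit fly name without a stated role (contig_1409, 0.093). The nearest to contig_48 were a homeodomain transcription factor (contig_431, 0.11), a spectrin beta chain of the membrane skeleton (contig_496, 0.16) and a transposon contig (contig_3002, 0.28). The nearest to contig_23019 were another transposon contig (contig_6081), a succinyl-CoA:3-ketoacid transferase of ketone body use (contig_3064) and a substrate of the epidermal growth factor receptor (contig_7465), at distances of 0.036 to 0.038.

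Other salivary inhibitors were taken by words in their descriptions. The name of another thrombin inhibitor, or of an anticoagulant on the list used, was carried by 3 contigs. All 3 were called on the semi-engorged side, against 15.5% of all tested contigs and 276 of the 552 tested contigs with salivary gland names. With a pseudocount of 10 CPM only 1 of the 3 was called. A list of 3 contigs cannot be set apart from these shares. Haemalin (contig_38438), a Kunitz-type thrombin inhibitor of H. longicornis, had 231 engorged and 794 semi-engorged reads and was 3.68-fold higher in the semi-engorged library (3.18 to 4.28). The contig named thrombin inhibitor after an Amblyomma hebraeum protein (contig_51479) had 0 and 129 reads. With a floor of 3 reads for the empty library it was at least 46.1-fold higher in the semi-engorged library. It belongs to the 5632 contigs numbered above 50000, of which 65.9% had no engorged read and 0% no semi-engorged read, whereas 0 of the 4 madanin and chimadanin contigs do. Longistatin (contig_5568), which in H. longicornis activates plasminogen and degrades fibrinogen and so is no thrombin inhibitor, had 1223 and 7010 reads and was 6.14-fold higher in the semi-engorged library (5.78 to 6.53). Per length, haemalin stood at 6.93 RPKM (engorged) and 25.5 RPKM (semi-engorged), far below contig_40363 and contig_48 in both libraries and, in the semi-engorged library, above contig_213 and contig_23019.

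There were 78 tested contigs named tissue factor pathway inhibitor, which blocks the start of the clotting cascade, or given a laris name after tick Kunitz proteins. Of these, 22 were called on the engorged side and 39 on the semi-engorged side, against 13% and 15.5% of all tested contigs. The list had a median log2 fold of -1.06, against -0.049 over all tested contigs and -1.01 over the 552 tested contigs with salivary gland names, of which 125 were called on the engorged and 276 on the semi-engorged side. It was -3.13, against -0.099, when empty libraries were given 3 reads and nothing was added to the CPM. Without the contigs numbered above 50000, which include 19 of the list, the median was -0.55 and 28 were called on the semi-engorged side. The list's contigs from contig_49610 to contig_49911 lie just below this limit and remain in these counts. All of them were called on the semi-engorged side. The most abundant on this list (contig_6576) had 427 engorged and 85328 semi-engorged reads. Its match is tissue factor pathway inhibitor 2 of Bos grunniens mutus, not a tick protein. A bilaris contig (contig_1564) had the largest log2 fold, with 67842 engorged reads against 1. Of 17 tested contigs named Kunitz, 4 were called on the engorged and 7 on the semi-engorged side, and the median log2 fold was -0.61 (order-statistic 95% interval -2.56 to 0.68, or -0.92 with zeros at 3 reads). It ran from -2.54 with a filter of 100 reads to -0.075 with a pseudocount of 10 CPM. The most abundant of these (contig_1637), named after a Schistosoma mansoni protein, had 9037 engorged and 15920 semi-engorged reads. The one with the largest log2 fold (contig_49900), numbered just below 50000, had 0 and 6679.

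Of all tested contigs, 13% were called on the engorged and 15.5% on the semi-engorged side, or 20.7% and 22.4% of those with at least 100 reads. Of 37 tested contigs named serpin or serine protease inhibitor, 12 were called on the engorged and 6 on the semi-engorged side, and the median log2 fold was 0.48 (0.69 with zeros at 3 reads). A salivary serpin (contig_1782) led them with 13300 engorged against 4458 semi-engorged reads. A contig with 0 against 2036 reads (contig_50185), also numbered above 50000, had the largest log2 fold. This list shares contig_16148, contig_44695, contig_22891 and contig_21626 with the Kunitz list. Of these, contig_22891 and contig_21626 are among the semi-engorged calls of both lists. Of 30 tested contigs with apyrase, nucleotidase, platelet or disintegrin in their names, 3 were called on the engorged and 8 on the semi-engorged side, and the median log2 fold was -0.056 (-0.073 with zeros at 3 reads), with a sign that turned with the scaling. The most abundant was an apyrase (contig_4695) with 25533 engorged against 11687 semi-engorged reads. The largest log2 fold there belonged to a disintegrin-metalloprotease (contig_325), an enzyme and not a known platelet inhibitor, with 11538 against 487 reads. The madanin and chimadanin contigs had a median log2 fold of 0.12, but their 4 values ran from -1.16 to 6.83.

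**Figure D4:**
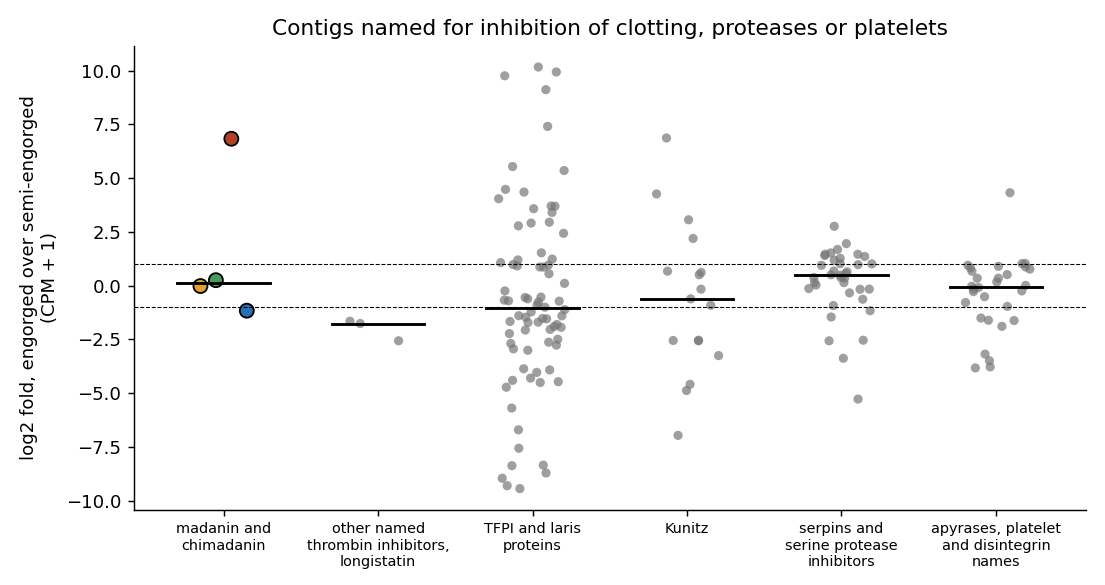
Log2 fold of engorged over semi-engorged CPM + 1 for each tested contig of the madanin and chimadanin family (coloured as in the plot of the family's make-up) and of the other inhibitor lists, with a bar at each median and dashed lines at the 2-fold limit; TFPI is tissue factor pathway inhibitor. The horizontal spread of points has no meaning, and contigs of the TFPI and laris list reach further in both directions than the 4 family members.

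Together these lists hold 171 contigs, of which the 4 madanin and chimadanin contigs took 18.7% (engorged) and 11.6% (semi-engorged) of the reads. Per length, contig_213 was the highest of the 171 in the engorged library and 72nd in the semi-engorged library. Next to it in the engorged library were bilaris contigs, led by contig_1564 at 1045 RPKM against 0.017 RPKM in the semi-engorged library. In the semi-engorged library a trilaris contig (contig_49638) was highest, at 1217 RPKM, with contig_48 next to it at 1150 RPKM, and contig_49638 was listed at 0 in the engorged library. Of the 171 contigs, 6 others had a larger log2 fold in the engorged direction than contig_213. At least 100 RPKM, a limit chosen after the values were seen, was reached by 21 contigs in engorged glands, by 18 in semi-engorged glands and by 4 in both. These 4 were contig_40363, contig_48, the Kunitz contig contig_1637 at 225 and 424 RPKM, and a monolaris contig (contig_48588) at 110 and 390 RPKM. The same counts were not taken over all contigs, so whether this overlap is unusual was not tested.

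Markers were checked against the labelled tissue. Salivary gland names (salivary, lipocalin, glycine-rich, cement, HLSG) took 4.07% (engorged) and 6.18% (semi-engorged) of the reads over 557 contigs. Muscle names took 0.0543% and 0.0496%, haemocyte and fat body names 0.213% and 0.212%, and midgut and cuticle names 0.0210% and 0.0471%. Host haemoglobin and albumin, 3 contigs all called on the engorged side, took 0.0031% and 0.00059%. The part of tissue make-up in the values of the madanin and chimadanin contigs was not tested.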

How the data were processed

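Each contig has raw counts and RPKM (reads per kilobase of contig, relative to the column total) in the table the authors deposited, together with its best-matching protein. The submitters' processing notes list CASAVA 1.8, TopHat and Cufflinks, with no word on what each did. The sources used here do not give how contigs were assembled, counted and annotated. The deposited RPKM was checked against the counts: both libraries gave the same whole contig length, to within 0.00023 bases.

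Counts were scaled to library totals. No test across contigs was run, because each stage has 1 library. The reads carry no molecular identifiers, so intervals and the floor of 3 reads cover counting error only. The named contigs are all members, the 3 nearest contigs to each, and the most abundant contig and the contig with the largest log2 fold (at least 100 reads in the higher library) of each list; lists of under 5 contigs are given whole. Members and lists were chosen with earlier results of these data known, and the laris words were narrowed after a monkey species name matched them. Scaling, pseudocount, filter, threshold and RPKM were varied. The calls and the interval of the ratio were tried on simulated Poisson counts. These hold only the counting error that the interval assumes, so they cannot speak on spread between ticks or libraries. Tools were Python 3.11.15, scipy 1.17.1, pandas 2.3.3, and edgeR 4.0.16 for TMM factors alone. No sequence is printed.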

Additional observations from a re-analysis of the deposited data

How the results depend on the processing

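TMM factors gave log2 folds of 6.84 for contig_213, -0.013 for contig_40363, -1.16 for contig_48 and 0.26 for contig_23019. RPKM in place of CPM gave 6.88, -0.016, -1.16 and 0.27 in the same order. Setting the median log2 ratio to 0 gave log2 folds of 6.61 for contig_213, -0.25 for contig_40363, -1.40 for contig_48 and 0.048 for contig_23019, and read-sum ratios of 3.35 for chimadanin and 1.42 for the family. Totals without the 50 most abundant contigs gave 7.09, 0.21, -0.94 and 0.47, and 4.603 and 1.96. For contig_213 a pseudocount of 0.1 gave 6.97 and a pseudocount of 10 gave 5.88. Without contig_213, the read-sum ratio was 0.994 (0.974 to 1.01) for chimadanin, an interval that gives no direction, and turned to 0.636 for the family.

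Over all contigs, the calls on the engorged and then the semi-engorged side numbered 10956 and 15014 at a pseudocount of 0.1, 2020 and 2510 at a pseudocount of 10, 1763 and 3221 at a log2 fold of 2, and 2921 and 3141 among the 18950 described contigs, an alternative added after the data were seen. They were 4982 and 8541 with the median set to 0 and, in reversed order, 8719 and 7823 without the 50 most abundant contigs. The other named thrombin inhibitors and anticoagulants called higher in the semi-engorged library fell to 1 with a pseudocount of 10 and to 1 at a log2 fold of 2. The tissue factor pathway inhibitor and laris median was -2.63 with a pseudocount of 0.1 and -0.23 with 10, where 20 were called higher in the semi-engorged library. A pseudocount of 10 left 4 and 3 serpin calls, and 1 was called higher in the engorged library at a log2 fold of 2. Without contigs numbered above 50000, also chosen after the data were seen, 3 serpins and 28 tissue factor pathway inhibitor and laris contigs (median -0.55) were called higher in the semi-engorged library, and 2 Kunitz contigs in the engorged library. Contigs numbered just below this limit, among them contig_49610 and contig_49638, stayed in. Apyrase and platelet contigs called higher in the engorged library numbered 1 with the median set to 0, 8 without the 50 most abundant contigs, 7 with a pseudocount of 0.1, 1 with 10 and 1 at a log2 fold of 2; in the semi-engorged library 4 with a pseudocount of 10 and 4 at a log2 fold of 2. Depth limits contig_23019 and the semi-engorged value of contig_213 most.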
